A study of Mus musculus with 4 samples.

Results

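The genes described here are 29 that carry out class switch recombination and somatic hypermutation once uracil has been made in DNA, measured as poly(A) RNA in activated mouse B cells. They were listed by name under a rule that uses no measured value, although earlier results of these data were known when they were chosen. All 29 were found in the deposited table by gene symbol, out of 55401 rows. H2afx is listed there as H2ax. All 29 also passed the filter on low counts, which left 14180 genes for testing. They were grouped by role into base excision (3 genes), mismatch repair (4), break signalling (10) and end joining with end protection (11), and Exosc3, an RNA exosome subunit, was kept apart.

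The libraries came from splenic B cells of C57BL/6 mice, either wild type (2 libraries) or labelled Adar1 cKO (2 libraries), which the series text describes as a conditional knockout in B cells. Cells of both genotypes had been isolated with anti-CD43 beads and kept in culture for 36 h, with anti-CD40 at 1 µg/ml and anti-IgM at 10 µg/ml. The promoter driving the recombinase, the part of Adar1 deleted, the age of the mice and whether each library is a separate animal are not stated in the labels. The p-values and intervals therefore rest only on how these libraries vary, which may be technical in part. Adar1, the enzyme that edits adenosine to inosine in double-stranded RNA, is listed as Adar. Its level was 137 and 149.97 CPM (counts relative to library size, with TMM factors) in wild type and 218 and 233 CPM in the libraries labelled cKO, so the gene was higher where the label names a knockout. The libraries are therefore called cKO-labelled, and every direction below rests on that label. Gene-level counts do not show whether an exon was lost.

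As background, cytosine is converted to uracil in the switch regions and variable segments of immunoglobulin genes. Uracil glycosylase and apurinic endonucleases turn the uracils into nicks, mismatch repair proteins widen them, and error-prone synthesis leaves mutations. In switch recombination the nicks become double-strand breaks, which the ATM kinase and chromatin-bound factors signal, and non-homologous end joining fuses the distant breaks while shieldin and its partners keep the ends from being resected. Anti-CD40 gives proliferating B cells a stand-in for T-cell help, and the same repair proteins also serve DNA replication and general repair.

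Of the 29 genes, 6 passed the test between the genotypes, a share like that of all genes, and their changes were small. In edgeR's quasi-likelihood test, with p-values adjusted by Benjamini-Hochberg over all genes tested and a threshold of 0.05, Atm and Mre11a were higher in the cKO-labelled libraries, and Ung, Msh6, Parp1 and Xrcc6 were lower. The log2 changes of the 29 genes, cKO-labelled minus wild type, ran from -0.35 to 0.22 with a median of -0.013, beside a median of -0.0058 over all genes tested. The 6 genes called made up 20.7% of the 29, where the share over all genes tested was 21.7%. The 2 higher genes were 6.9% against 12.2% of all genes, and the 4 lower genes 13.8% against 9.54%. The share called is thus near that of all genes. DESeq2 called 1 of the 29 higher and 3 lower, where it called 8.71% and 5.61% of all genes. The genotypes were apart, with no overlap between their libraries, for 17 of the 29 (58.6%, against 57.9% of all genes), with the cKO-labelled pair above for 8 and below for 9.

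The promoters of 4 of the 6 called genes are shown because these are the genes of the list that passed the test, and because their windows before the RefSeq start (GRCm38.p6) hold bases outside annotated exons. RefSeq supplied promoters for 22 of the 29 genes. Capitals mark letters found on either strand: CCAAT (the CCAAT box, read as ATTGG on the other strand) and CACGTG (an E-box). Each run is on the gene's strand, 5′ to 3′. They are chr5:114130236-114130385 (plus strand) for Ung, chr17:87974900-87975049 (plus) for Msh6, chr1:180568741-180568890 (plus) for Parp1 and chr9:53536741-53536890 (minus) for Atm.
Ung: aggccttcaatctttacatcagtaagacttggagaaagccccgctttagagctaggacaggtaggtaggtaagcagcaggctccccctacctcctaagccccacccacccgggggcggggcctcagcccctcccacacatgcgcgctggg
Msh6: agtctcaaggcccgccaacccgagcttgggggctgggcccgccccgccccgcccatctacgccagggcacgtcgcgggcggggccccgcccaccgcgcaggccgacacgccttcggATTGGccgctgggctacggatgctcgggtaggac
Parp1: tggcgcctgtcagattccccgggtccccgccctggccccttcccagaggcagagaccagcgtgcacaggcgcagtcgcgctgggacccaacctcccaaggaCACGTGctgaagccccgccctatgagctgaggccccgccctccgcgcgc
Atm: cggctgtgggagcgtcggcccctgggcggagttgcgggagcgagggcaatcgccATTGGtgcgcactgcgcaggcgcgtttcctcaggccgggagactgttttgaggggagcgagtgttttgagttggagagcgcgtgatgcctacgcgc
In Msh6 the reversed CCAAT box began 34 bases before the start, in Atm 165 bases before it, and the E-box of Parp1 began 49 bases before the start. The Ung window held neither CCAAT nor CACGTG on either strand.

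Over the 250 bases before the start, CCAAT was present in 9 of the 26 windows of these 22 genes (34.6%) and in 33.8% of all promoter windows, and CACGTG in 3 of 26 (11.5%) and 6.02% of all windows. E2F-type letters (TTTGGCGC, TTTCGCGC, TTCCCGCC or TTTCCCGC, of which the last pair can overlap) were present in 4 of 26 (15.4%), those of Mdc1, Rnf168, Rnf8 and Xrcc6, and in 2.92% of all windows. The median GC content was 61.0% in the windows of these genes and 52.4% in all windows, and its part in these shares was not tested. Windows that lie wholly in annotated exons, as those of Xrcc6 and Mre11a do, were counted as well. These are matches of letters on both strands, which describe the windows and show no binding.

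**Figure D1:**
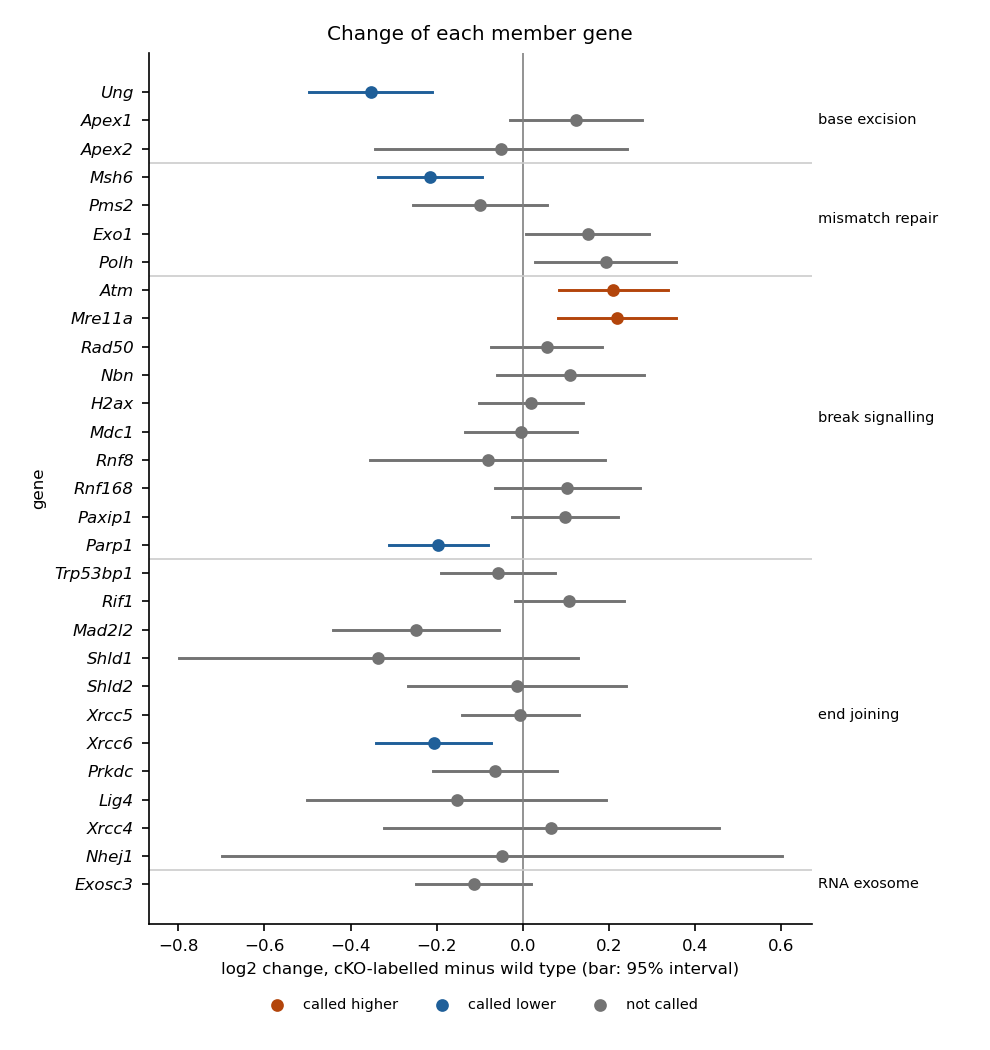
Log2 change of each of the 29 genes (x axis, cKO-labelled minus wild type, bar showing the 95% interval) by role. Ung, Msh6, Parp1 and Xrcc6 lie to the left and Atm and Mre11a to the right with intervals clear of 0. The other 23 were not called after adjustment, Exo1, Polh and Mad2l2 among them, whose unadjusted intervals also clear 0.

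Of the 3 base excision genes, Ung was lower and the others were not called. Ung, which removes uracil from DNA as the first step of its repair (ENSMUSG00000029591, GRCm38 chromosome 5, 114130386 to 114139323), stood at 91.7 and 81.6 CPM in wild type, against 66.5 and 69.1 CPM in cKO-labelled libraries. Both cKO-labelled libraries lay below both wild-type ones. The change was -0.35 ± 0.069 (SE, n = 2 libraries per genotype), 0.783 of the wild-type level, and edgeR quasi-likelihood gave adjusted p = 0.000512. It was called under all 14 alternative ways of processing, where it lay between -0.44 and -0.27. Ung encodes a nuclear and a mitochondrial form, which a gene-level count does not separate. In bulk RNA, a smaller share of cells that express a gene and less of its RNA per cell cannot be told apart, here and below.

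The apurinic endonucleases, which cut the site that Ung leaves, did not pass the test. Apex1, the main enzyme, stood at 67.7 and 74.3 CPM in wild type and 82.9 and 71.9 CPM in cKO-labelled libraries, so the genotypes overlapped. Its 95% interval was -0.030 to 0.28. The gene on the other strand, Pip4p1, overlaps 61.67% of the exonic length of Apex1, and the kit used does not mark strand, so reads of the pair cannot be told apart there. Apex2, the minor paralogue, had 12.99 to 14.97 CPM over the 4 libraries and an interval of -0.34 to 0.24.

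Of the 4 mismatch repair genes, Msh6 was lower and the others were not called. Msh6, a subunit of the complex that recognises the uracil-guanine mismatch (ENSMUSG00000005370, chromosome 17, 87975062 to 87990892), stood at 164 and 162 CPM in wild type, against 141 and 139.7 CPM in cKO-labelled libraries. The wild-type libraries lay close together, and so did the cKO-labelled ones, with no overlap. The change was -0.21 ± 0.058, 0.862 of the wild-type level (95% interval 0.793 to 0.937), and edgeR quasi-likelihood gave adjusted p = 0.00923. It was called under all 14 alternatives, between -0.30 and -0.21. Fbxo11 overlaps 0.78% of the exonic length of Msh6 on the other strand.

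The partners of Msh6 pointed in both directions without passing the test. Pms2, the endonuclease subunit that nicks the strand, stood at 51.4 and 50.7 CPM in wild type and 48.4 and 46.9 CPM in cKO-labelled libraries (-0.10 ± 0.075). Exo1, the exonuclease that opens the gap, stood at 58.5 and 57.9 CPM against 63.5 and 65.7 CPM (0.15 ± 0.069), and edgeR quasi-likelihood put its adjusted p at 0.128. Polh, the translesion polymerase that mutates A-T pairs in the gap, stood at 48.1 and 46.9 CPM against 57.9 and 50.6 CPM (0.19 ± 0.079), and its adjusted p was 0.0898 by the same test. For all 4 mismatch repair genes the libraries of each genotype were apart, below wild type for Msh6 and Pms2 and above it for Exo1 and Polh. Over all genes tested, 57.9% were apart in either direction. Without cKO-labelled library 2, Polh stood at 0.29 and Apex1 at 0.22. In that fit both were called higher, while Atm and Mre11a were not called. Without cKO-labelled library 1, Polh and Apex1 stood at 0.090 and 0.014. Apex1 also moved with the wild-type libraries, to 0.053 without library 1 and 0.19 without library 2. Both values thus depend on which library is left out.

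**Figure D2:**
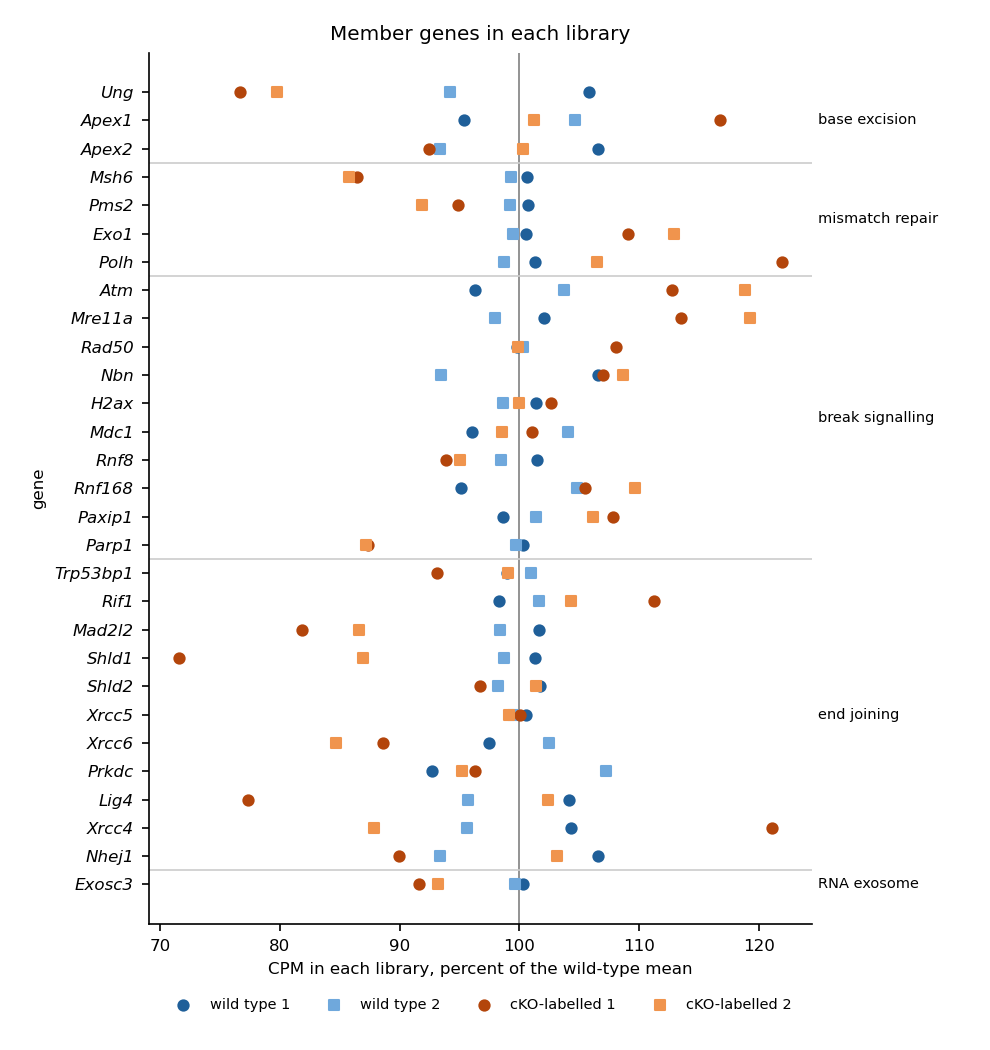
CPM of each gene in the 4 libraries as a percent of its wild-type mean (x axis), by role. Ung, Msh6, Parp1 and Xrcc6 have both cKO-labelled points left of both wild-type points, Atm and Mre11a have them to the right, and the scatter is widest for genes of few counts such as Shld1, Lig4 and Xrcc4.

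Of the 10 break signalling genes, 2 were higher and 1 was lower. Atm, the kinase that responds to double-strand breaks (ENSMUSG00000034218, chromosome 9, 53439149 to 53536740), stood at 135 and 145 CPM in wild type, against 158 and 167 CPM in cKO-labelled libraries, without overlap. Its change was 0.21 ± 0.061, 1.157 of the wild-type level, and edgeR quasi-likelihood gave adjusted p = 0.015. Mre11a, the nuclease of the MRN complex that senses broken ends (ENSMUSG00000031928, chromosome 9, 14784654 to 14837123), stood at 69.1 and 66.3 CPM in wild type, against 76.8 and 80.7 CPM in cKO-labelled libraries. Its change was 0.22 ± 0.066, 1.164 of the wild-type level, and that test gave adjusted p = 0.019.

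The rises of Atm and Mre11a were called under 10 and 8 of 14 alternatives, the falls of Ung and Msh6 under all 14. After a trend on GC content had been removed from each library, Atm changed by 0.086 and Mre11a by 0.11, and their adjusted p in edgeR quasi-likelihood was 0.346 and 0.26. The longest transcripts of Atm and Mre11a had a GC content of 42.6% and 45.8%, those of the 4 lower genes 48.3% to 53.2%, and the median of all genes tested was 49.4%. Over all genes, higher genes made up 56.07% of the calls as reported and 42.02% with that trend removed. The correction lowered the median over all genes from -0.0058 to -0.0692, but the move differed by gene. In that fit Ung stood at -0.44 and Msh6 at -0.30, further from 0 than as reported. Mad2l2 went from -0.25 to -0.21 and H2ax from 0.019 to 0.092. With the median lowered, that fit does not compare rises and falls on equal terms. The part of GC content in these changes was not tested. Atm also lost its call without wild-type library 1 (adjusted p 0.215) or cKO-labelled library 2 (0.0887), and Mre11a without wild-type library 1 (0.055), wild-type library 2 (0.184) or cKO-labelled library 2 (0.105), all in edgeR quasi-likelihood, and by DESeq2 (adjusted p 0.106).

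The other subunits of the MRN complex did not pass the test. Rad50, the ATPase that tethers the ends, had 108, 109, 117 and 108 CPM in wild-type libraries 1 and 2 and cKO-labelled libraries 1 and 2. Nbn, which recruits ATM, had 47.0 and 41.2 CPM in wild type and 47.1 and 47.9 CPM in cKO-labelled libraries. The 95% intervals were -0.073 to 0.18 for Rad50 and -0.060 to 0.28 for Nbn, so that the interval of Nbn included the change of Mre11a and that of Rad50 ended below it. The ratio of Mre11a to Rad50 in deposited FPKM, which counts per length, was 0.58 and 0.553 in wild type, and it was 0.595 and 0.676 in the cKO-labelled pair. The difference between the subunits was not tested.

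The genes that act in chromatin beside a break were not called. H2ax, the histone variant that ATM phosphorylates beside a break, had 163 and 159 CPM in wild type and 165 and 161 CPM in cKO-labelled libraries, with an interval of -0.10 to 0.14. Mdc1, which binds the phosphorylated histone, had 99.2 and 108 CPM against 104 and 102 CPM and an interval of -0.13 to 0.13. The ubiquitin ligases that follow had intervals of -0.35 to 0.19 for Rnf8 and -0.064 to 0.27 for Rnf168. Paxip1, an adaptor that binds phosphorylated repair proteins, had an interval of -0.026 to 0.22. For Rnf168 and Paxip1 both cKO-labelled libraries were above both wild-type ones, and for Rnf8 below. The transcript Gm28043 overlaps 13.18% of the exonic length of Rnf8 on the same strand.

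Parp1, which binds breaks and builds poly(ADP-ribose) and acts in alternative end joining (ENSMUSG00000026496, chromosome 1, 180568924 to 180601254), was the lower gene of this group. It stood at 526.5 and 523 CPM in wild type, against 459 and 458 CPM in cKO-labelled libraries. The libraries of a genotype differed by far less than the genotypes did. The change was -0.20 ± 0.056, 0.873 of the wild-type level, and edgeR quasi-likelihood gave adjusted p = 0.0129. It was called under 13 of 14 alternatives, the exception being the fit without wild-type library 1 (-0.20, adjusted p 0.0574 by the same test).

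Of the 11 genes of end joining and end protection, Xrcc6 was lower and the others were not called. Xrcc6, a subunit of the Ku heterodimer that caps broken ends (ENSMUSG00000022471, chromosome 15, 81987835 to 82040085), stood at 89.0 and 93.6 CPM in wild type, against 80.9 and 77.4 CPM in cKO-labelled libraries, without overlap. The change was -0.21 ± 0.064, 0.866 of the wild-type level, and edgeR quasi-likelihood gave adjusted p = 0.0223. The call was lost by DESeq2 (adjusted p 0.11) and, in edgeR quasi-likelihood, without wild-type library 2 (adjusted p 0.183) or cKO-labelled library 2 (0.113). Desi1 overlaps 7.69% of the exonic length of Xrcc6 on the other strand.

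The other Ku subunit gave one of the tightest sets of values. Xrcc5 had 69.9 and 69.2 CPM in wild type, against 69.6 and 68.9 CPM in cKO-labelled libraries, an interval of -0.14 to 0.13. The ratio of Xrcc6 to Xrcc5 in deposited FPKM was 0.725 and 0.771 in wild type, and it was 0.662 and 0.639 in the cKO-labelled pair. Those ratios do not overlap, and with 2 libraries per genotype their difference was not tested. Prkdc, the kinase that Ku recruits, had 85.2 and 98.6 CPM in wild type, which spanned the 88.5 and 87.4 CPM of the cKO-labelled libraries.

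The ligation step had few counts and wide intervals. Lig4, the ligase, had 205 and 215 reads counted in wild type, against 159 and 204 in the cKO-labelled pair, with an interval of -0.50 to 0.19. Xrcc4, its scaffold, had 150 and 157 counts against 182 and 128 (interval -0.32 to 0.46). Nhej1, which encodes the XLF partner of Xrcc4, had the fewest counts of the 29 genes, 51 and 51 against 45 and 50 (interval -0.70 to 0.60). In each of these genes the genotypes overlapped.

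The end protection genes gave small differences that did not pass the test. Mad2l2, the shieldin subunit also known as REV7 (ENSMUSG00000029003, chromosome 4, 148130384 to 148145699), had 35.2 and 34.1 CPM in wild type and 28.4 and 30.03 CPM in cKO-labelled libraries. The groups did not overlap, and at -0.25 ± 0.093 its edgeR quasi-likelihood adjusted p of 0.0612 was the closest to the threshold among genes not called. It was called with upper-quartile factors (adjusted p 0.0382) and with the replicate number as a block (0.045), both by the same test. Shld1 had 107 and 119 reads counted in wild type, against 79 and 93 in the cKO-labelled pair (-0.34 ± 0.22, interval -0.80 to 0.13), and Shld2, the subunit that binds single-stranded DNA, had 18.2 and 17.6 CPM against 17.3 and 18.2 CPM.

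Trp53bp1, which reads the ubiquitin mark and blocks resection, had 87.8 and 89.6 CPM in wild type and 82.6 and 87.8 CPM in cKO-labelled libraries (interval -0.19 to 0.074). Tubgcp4 overlaps 15.04% of its exonic length on the other strand. Rif1, its effector, had 119 and 123 CPM in wild type and 134 and 126 CPM in cKO-labelled libraries. The cKO-labelled libraries were above for Rif1, and its interval was -0.018 to 0.24.

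Exosc3, a subunit of the RNA exosome, which degrades and processes nuclear RNA, had 77.7 and 77.1 CPM in wild type, against 70.9 and 72.1 CPM in cKO-labelled libraries. The groups did not overlap, but the change of -0.11 ± 0.064 did not pass the test (adjusted p = 0.236, edgeR quasi-likelihood). With the GC trend removed it was called lower, at -0.19 and that test gave adjusted p = 0.033.

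**Figure D3:**
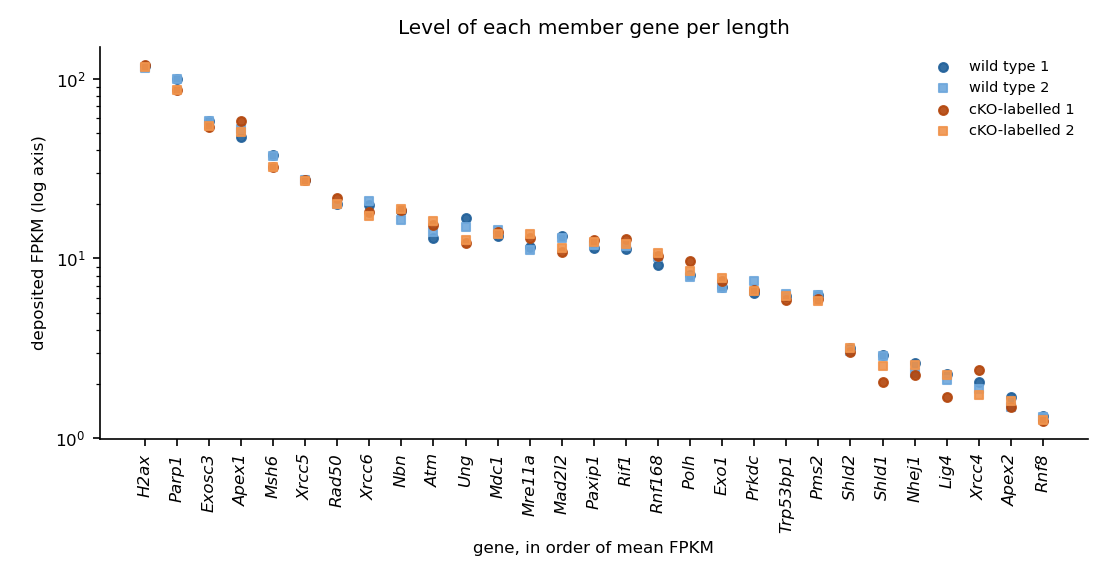
Deposited FPKM of each gene in the 4 libraries (log axis), in order of the mean. The order runs from H2ax at 117 to Rnf8 at 1.29, and the spread between libraries is small beside the spread between genes.

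Per length, the machinery spanned a wide range of levels. H2ax was the most abundant at a mean deposited FPKM of 117 over the 4 libraries, followed by Parp1 at 92.8, Exosc3 at 56.2, Apex1 at 52.1, Msh6 at 34.8 and Xrcc5 at 27.2. The libraries of Exosc3 and Apex1 overlapped, and the other neighbours in this part of the order were apart in all 4 libraries. From Atm at 14.6 to Rif1 at 11.9, with Ung, Mdc1, Mre11a, Mad2l2 and Paxip1 between them, each gene overlapped its neighbour in the order. The order of neighbours was thus not resolved, but Atm and Mdc1 lay above Paxip1 and Rif1 in all 4 libraries. Ung lay above Atm in wild type (mean FPKM 15.8 against 13.53) and below it in the cKO-labelled pair (12.41 against 15.71). The ligation factors were near the bottom, with Nhej1 at 2.44, Lig4 at 2.08 and Xrcc4 at 2.02, beside the shieldin subunits Shld2 at 3.11 and Shld1 at 2.59. Apex2 at 1.58 and Rnf8 at 1.29 were the lowest per length, over exonic lengths of 8744 and 11703 bases. By CPM both lay above Lig4, Xrcc4, Shld1 and Nhej1 in all 4 libraries. The levels of Apex1 and Rnf8 also cover exons that overlap Pip4p1 (61.67% of the length) and Gm28043 (13.18%), and the part of these overlaps was not tested. Mad2l2, which also works outside shieldin, was 4.23 and 4.24 times the level of Shld2 in wild type and 3.57 and 3.61 times in cKO-labelled libraries.

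Within the variation of these libraries, the intervals limit how far these genes could have moved. Whether that variation includes separate animals is not stated. All 29 had a 95% interval within a 2-fold change in either direction, and 27 had one within 1.5-fold. Counts ran from 45 (Nhej1) to 10293 (Parp1) per gene and library. A gene that was not called is not shown to be the same in both genotypes, since its interval holds changes other than 0. At an unadjusted p under 0.05 in edgeR, 9 of the 29 differed (31.0%), near the 32.3% of all genes tested.

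**Figure D4:**
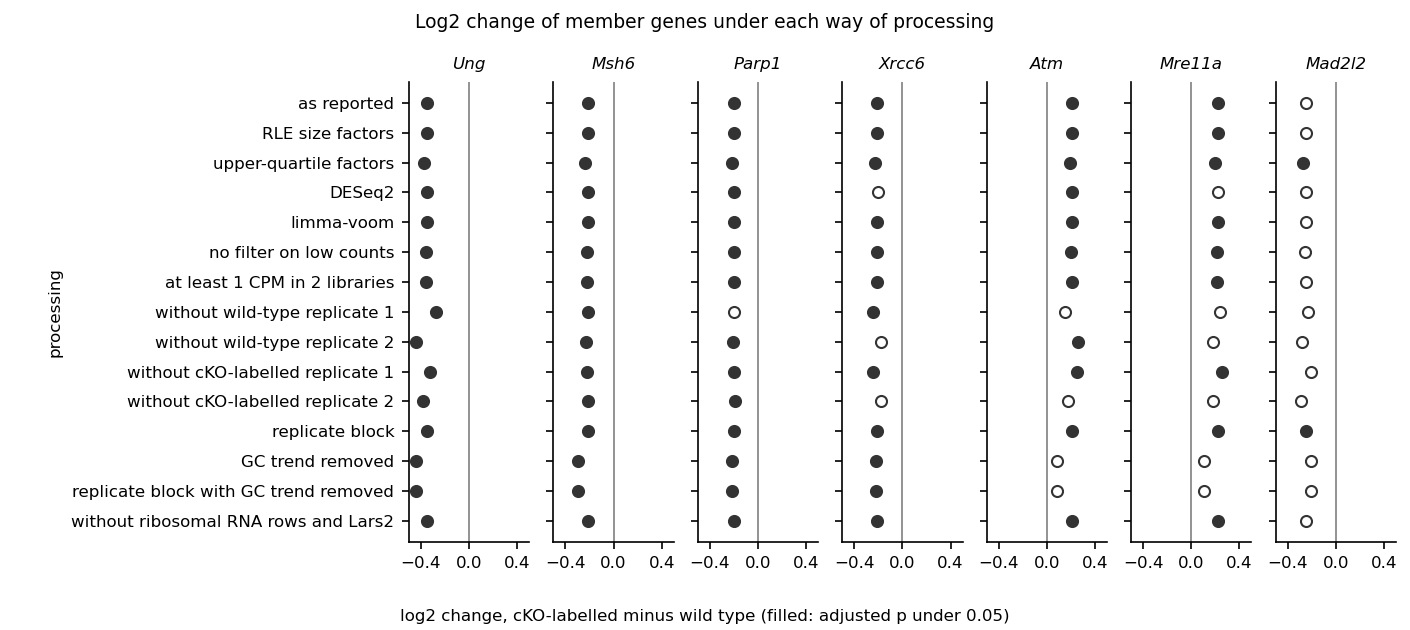
Log2 change (x axis) of the 6 called genes and of Mad2l2, the gene not called with the smallest adjusted p, under each way of processing (rows). Filled points have an adjusted p under 0.05. Ung and Msh6 are filled throughout, and Atm and Mre11a are open once the GC trend is removed.

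Other genes of the pathway were listed by role. Over the 5 lists described here, 54 of 55 genes were tested, 5 were higher and 2 were lower, with a median change of -0.019. The share called was 13.0%, beside 21.7% of all genes tested. Outside these lists Rpa1, a subunit of the single-strand DNA binding protein, was lower at -0.16 ± 0.058. Its call held under 9 of 14 alternatives and was lost by DESeq2 (adjusted p 0.0675) and, in edgeR quasi-likelihood, when any 1 of the 4 libraries was left out (adjusted p 0.0649 to 0.241).

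Of 14 other base excision genes, Fen1, the flap endonuclease, was the gene called, higher at 0.39 ± 0.084. Of 10 mismatch repair and translesion genes, Rad18, which ubiquitinates PCNA, was higher at 0.32 ± 0.070 and Polq, the polymerase of microhomology joining, at 0.32 ± 0.067. Rad18 lost its call with the replicate block and the GC trend removed together (adjusted p 0.0638 in edgeR quasi-likelihood). Of 10 other break signalling genes, Rbbp8, which encodes the resection factor CtIP, was higher at 0.36 ± 0.077 and Uimc1, a ubiquitin reader, lower at -0.21 ± 0.066. Without cKO-labelled library 2, Uimc1 stood at -0.11 and was not called (adjusted p 0.364 in edgeR quasi-likelihood), and without cKO-labelled library 1 it stood at -0.33. With the GC trend removed Rad18, Polq and Rbbp8 stood at 0.20, 0.21 and 0.23 and Uimc1 at -0.32, each still called. Of 11 other end protection and end joining genes, the histone chaperone Asf1a was higher at 0.32 ± 0.094 and Polm, a gap-filling polymerase, lower at -0.26 ± 0.080. DESeq2 called 0 genes of that list, with an adjusted p of 0.0818 for Asf1a and 0.128 for Polm. In edgeR quasi-likelihood Asf1a also lost its call with the GC trend removed (0.20, adjusted p 0.137) and without wild-type library 1 (0.22, adjusted p 0.222), and Polm without wild-type library 2 (adjusted p 0.193) or cKO-labelled library 1 (0.108). Of 9 tested subunits of the RNA exosome other than Exosc3, 0 were called by edgeR and 0 by DESeq2, and 0 had an unadjusted p under 0.05.

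**Figure D5:**
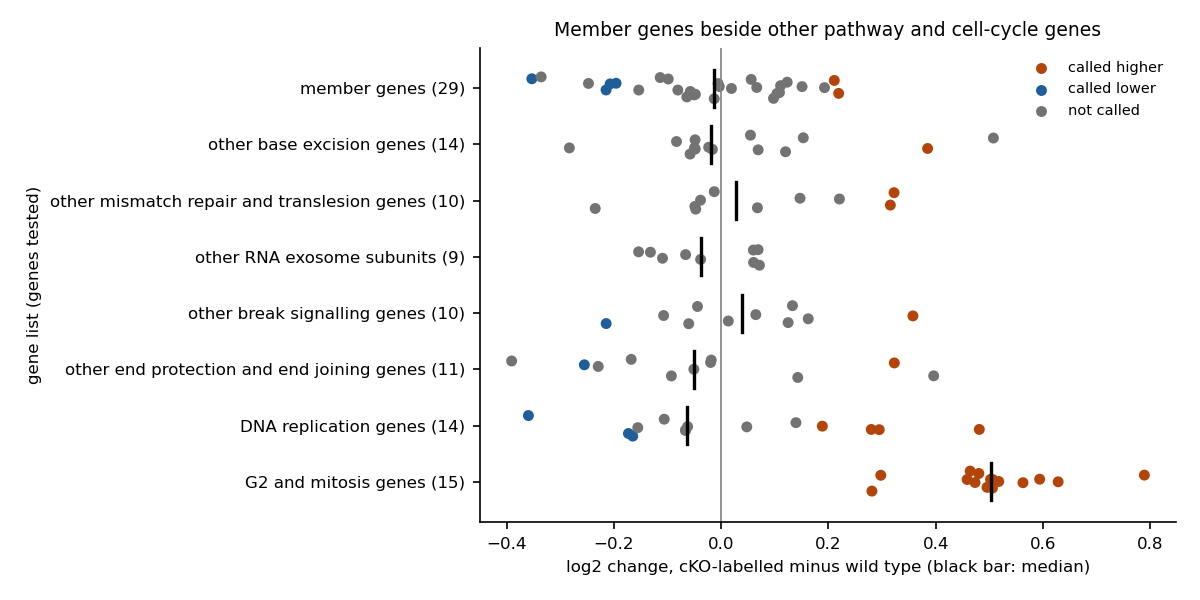
Log2 change (x axis) of the 29 genes beside lists of other pathway genes and of cell-cycle genes, with points coloured by call and a black bar at the median. The pathway medians lie near 0, and all 15 G2 and mitosis genes lie above 0.

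Several of the 29 genes are also expressed with DNA replication, and cell-cycle genes moved in the same libraries. All 15 genes of G2 and mitosis were higher, with summed levels of 1953 and 2018 CPM in wild type and 2808 and 2649 CPM in cKO-labelled libraries. Of 14 DNA replication genes 4 were higher and 3 lower, with sums of 3956 and 3974 CPM against 3950.0 and 3942 CPM. The 10 interferon-stimulated genes were all higher, with a median of 3.14. The part of these shifts in the changes of Atm, Mre11a, Ung, Msh6, Parp1 and Xrcc6 was not tested.

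Library totals lay between 17327480 and 19669651 counts. Of 8 B-cell genes, 5 were lower and 1 higher, and their sums were 4856 and 4823 CPM in wild type and 3794 and 3905 CPM in cKO-labelled libraries. Of 6 dendritic cell markers 4 were tested and 3 were higher, with sums of 56.9 to 57.8 CPM in wild type and 108 to 112 CPM in cKO-labelled libraries, while Clec9a had 1 to 2 counts in any library. Of 7 T-cell markers 3 were tested and 1, Lck, was lower, with sums of 156 to 165 and 126 to 135 CPM. Lck made up nearly all of these sums, at 155 to 162 and 125 to 133 CPM, so they do not measure T-cell content. Cd3g and Trac had 0.509 to 1.74 CPM over the 4 libraries and were not called, and Cd3e had 0 to 3 counts. The 6 of 7 macrophage and neutrophil markers tested summed to 15.8 to 18.5 and 17.8 to 18.4 CPM (S100a9 higher, Ly6g at 0), the 2 of 4 NK cell markers to 1.42 to 1.45 and 4.72 to 6.19 CPM (both higher), and the 3 erythroid markers reported to 0.813 to 1.27 and 3.61 to 3.78 CPM (2 higher). Ribosomal RNA rows held 0.525% of counts in wild-type library 2 and 0.0947% to 0.125% in the other libraries. Their part in the results on the 29 genes was not tested, apart from the fit without ribosomal RNA rows, in which the same 6 genes were called.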

How the data were processed

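Per the labels, poly(A) RNA was sequenced from NEBNext Ultra libraries, which do not mark strand. Per the submitters' processing notes, the tools were HISAT2 2.0.1, HTSeq 0.6.1, cutadapt 1.9.1 and bcl2fastq 2.17.1.14, on build GRCm38. Neither the strand setting of the counting nor the annotation release was stated there. The authors deposited whole-number counts per gene and FPKM values. The deposited FPKM values lay within 0.005 of those recomputed from count, exonic length and library total, and served only to compare levels between genes.

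Counts were tested by edgeR (version 4.0.16, R 4.3.3) after filterByExpr with a minimum count of 10 and a minimum total of 15, with TMM factors, glmQLFit and glmQLFTest on all 4 libraries by genotype, and Benjamini-Hochberg adjustment over 14180 genes, with genes called at an adjusted p under 0.05. Each SE is the change divided by the square root of F, and 95% intervals use the test's degrees of freedom. Libraries of a genotype differed by more than counting noise, and each was kept. The chi-square per gene was 6.41 in wild type and 3.55 in the cKO-labelled pair. It was averaged over all rows with a count, including the ribosomal RNA rows that differ between the wild-type libraries. The test was tried on simulated data drawn with a common dispersion, with 50 changed genes at each fold. It recovered 100% of 2-fold, 86% of 1.5-fold and 14% of 1.2-fold changes there. In the data 3080 of 14180 genes were called, a far larger share than was changed in the simulation, and the adjustment depends on that share. The simulated shares therefore cannot give the share of small changes missed in the data. Atm, Mre11a, Msh6, Parp1 and Xrcc6 were called at 1.157, 1.164, 0.862, 0.873 and 0.866 of the wild-type level. Alternatives were other size factors, DESeq2 1.42.0, limma-voom (limma 3.58.1), other filters, each library left out, a replicate block, GC-trend offsets (GENCODE M21 longest transcripts, matched for 99.53% of rows) and leaving out ribosomal RNA rows with Lars2.

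The members and lists were chosen with earlier results of these data known, and the promoter motifs after the values had been seen. Other motifs were searched in the same windows and are not reported here, among them those of NRF1, ETS factors, YY1, NF-kB and p53, the cell-cycle homology region, the interferon-stimulated response element and other spellings of the E2F site. Named genes were Adar, the 29 members and at most 3 called genes of each pathway list, and some listed genes are not reported here. A pathway list that held such a gene is not counted. Coordinates are those of the deposited table.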

Additional observations from a re-analysis of the deposited data

How the results depend on the processing

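Ung and Msh6 were called lower under all 14 alternatives. DESeq2 called 1 member higher and 3 lower, beside 1235 genes higher (8.71%) and 795 lower (5.61%). With the GC trend removed, and with the replicate block together with that correction, 0 members were higher (0 also at an unadjusted p under 0.05 in edgeR) and 5 lower. In these 2 fits the split over all genes turned as well: 1727 higher and 1353 lower as reported (56.07% higher), 1317 and 1817 with the GC trend removed (42.02%), and 1189 and 1599 with both. The correction lowered the median of all genes to -0.0692 and that of the members to -0.1183. Calls in that fit carry these moves, which differed by gene. Of the calls, 2527 were shared with it and 0 changed sign.

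Leaving out each library gave 0 to 2 members higher, 3 to 4 lower, 1293 to 1469 genes higher and 984 to 1252 lower. The members called higher were not the same genes in each of these fits. Without cKO-labelled library 2 they were Apex1 and Polh, in place of Atm and Mre11a. Without wild-type library 1 neither Atm nor Mre11a was called, and without wild-type library 2 Atm was but Mre11a was not.

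Titles give both genotypes replicate numbers 1 and 2. Deviations of same-numbered libraries correlated at -0.032, so the numbers were not taken as pairs. The replicate block gave 2 members higher and 5 lower, and 1904 and 1594 genes.

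Uncalled genes near 0 changed sign. With the GC trend removed Rad50 was at -0.0592, Nbn at -0.0101, Rnf168 at -0.0165, Rif1 at -0.0136 and Xrcc4 at -0.0603; with the replicate block and that correction they were at -0.0603, -0.009, -0.0145, -0.0138 and -0.0744. H2ax was at -0.0035 with upper-quartile factors. Leaving out a library, the range was -0.1511 to 0.0396 for Apex2, -0.0037 to 0.1119 for Rad50, -0.0068 to 0.0384 for H2ax, -0.0657 to 0.0503 for Mdc1, -0.0467 to 0.0196 for Shld2, -0.0202 to 0.0012 for Xrcc5, -0.1697 to 0.0402 for Prkdc, -0.3683 to 0.0345 for Lig4, -0.1857 to 0.2784 for Xrcc4 and -0.1488 to 0.0464 for Nhej1. The cause was not tested. The 4 genes of fewest counts, Nhej1, Shld1, Xrcc4 and Lig4, had the widest intervals of the 29.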
